A study of Mus musculus with 4 samples.

Results

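The organic solute transporter is made of a pair of proteins, encoded by the mouse genes Slc51a and Slc51b, and both genes were followed across the cells and libraries of a mouse renal cortex study. They are 2 of the 22078 gene identifiers counted in the study, and both had counts in all 4 libraries. The pair was chosen by its measured levels per library in an earlier look at these data, among them the level of Slc51a in 1 wild-type library. The levels by library, by proximal segment and by genotype are therefore given as a description, with no test.

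Slc51a encodes the larger subunit, a protein with several membrane spans (OSTα), and Slc51b encodes a small partner with 1 span (OSTβ). Neither works alone: the subunits have to pair before they reach the plasma membrane. The pair sits on the basolateral side of ileal, renal and some hepatic epithelia and lets bile acids, steroid sulfates and prostaglandins pass down their gradient. In the kidney it is placed to return to the blood the bile acids that the apical carrier Slc10a2 takes up from the filtrate of the proximal tubule. In ileum and liver both genes are induced by the bile acid receptor FXR, the product of Nr1h4.

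The samples were renal cortex of 2 Akita mice (C57BL/6-Ins2Akita/J), aged 116 and 119 days, and 2 wild-type mice of the same supplier, aged 45 and 51 days, with 1 Drop-seq library per mouse. Akita mice carry a dominant mutation of the insulin gene Ins2 in every cell, which damages pancreatic beta cells and makes the mice diabetic. Age ran with genotype, so the effects of age and genotype cannot be told apart, and none of these ages reaches the 24 weeks of housing that the growth protocol describes. Drop-seq tags the 3′ end of each captured mRNA with a cell barcode and a unique molecular identifier (UMI), and a level is given in CPM, the UMIs of a gene scaled to the total UMIs of the same cells. The files held between 1016719 and 1303453 UMIs. Barcodes with at least 200 genes and at most 50% mitochondrial UMIs were kept as cells, which left 1916 cells: 311 and 600 from Akita replicates 1 and 2, and 564 and 441 from Wild-type replicates 1 and 2.

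The libraries are not independent. A total of 884 barcodes occurred in both Akita replicate 2 and Wild-type replicate 1, against 3 or 4 for every other pair of files, and they made up 73.0% of cells kept in the first of these libraries and 80.5% in the second. Of 424 barcodes retained in both files, Slc51a had a UMI at 31 in Akita replicate 2 and at 32 in Wild-type replicate 1, and 26 of these barcodes were the same. For Slc51b the numbers were 44, 44 and 36. The levels in these 2 libraries thus rest largely on the same barcodes, and Akita replicate 1 and Wild-type replicate 2 are the libraries that share almost none.

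Slc51a (ENSMUSG00000035699) lies on chr16:32474504-32487879 of GRCm38, minus strand, with 9 exons in its protein-coding transcript. Slc51b (ENSMUSG00000053862) lies on chr9:65412714-65422955, minus strand, with 4 exons. The 3′ end of each, where Drop-seq reads fall, overlaps a gene on the other strand: 567 exonic bases of Slc51a lie under Pcyt1a, which encodes an enzyme of phosphatidylcholine synthesis, and 379 exonic bases of Slc51b lie under Rasl12, a Ras-like gene. Whether the counting used strand is not given in the sources used here, so reads from these stretches cannot be told apart between the partners. Pcyt1a had 83.1 and 76.4 CPM in the proximal tubule-like cells of Akita, against 49.2 and 90.5 CPM in Wild-type replicates 1 and 2, and Rasl12 had 0 or 1 UMI there in each library. Pcyt1a was highest in Wild-type replicate 2, and the part of these partners in the counts of Slc51a and Slc51b was not tested.

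The sequence just upstream of each gene is shown because both genes are known FXR targets and the letters of that receptor's site were looked for there. The sequences are from RefSeq's promoter table (GRCm38.p6), are read 5′ to 3′ on the strand of the gene, and end at the base before the most upstream annotated start. Slc51a covers chr16:32487880-32488129 and Slc51b chr9:65422956-65423023, both minus strand. Capitals mark AGGTCA, the core hexamer of many nuclear receptor sites, and CACGTG, an E-box bound by basic helix-loop-helix factors, on either strand.
Slc51a: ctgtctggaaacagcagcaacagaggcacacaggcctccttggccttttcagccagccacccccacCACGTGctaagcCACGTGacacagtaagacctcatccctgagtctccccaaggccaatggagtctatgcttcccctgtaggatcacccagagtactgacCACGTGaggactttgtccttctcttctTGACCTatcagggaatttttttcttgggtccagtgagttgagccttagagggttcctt
Slc51b: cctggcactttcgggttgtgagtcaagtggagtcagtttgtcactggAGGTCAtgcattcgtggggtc
The Slc51a stretch held CACGTG 3 times, which 0.0609% of 32851 RefSeq promoter windows cut to the same 250 bases did, while 6.02% held it at least once. It held AGGTCA once, as 14.0% of those windows did. The 68 bases of Slc51b held AGGTCA once, as 3.87% of the windows cut to the same 68 bases did, and no CACGTG. The inverted repeat AGGTCANTGACCT, the arrangement FXR is best known to bind, was in neither stretch, nor were the direct repeat AGGTCANAGGTCA or the HNF1 palindrome, which says only that these letters are not in these windows. These 5 motifs were searched, on both strands, and the hexamer is part of both repeats.

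Both genes were detected almost entirely in proximal tubule-like cells, the cells that reabsorb most of the filtrate. These were 1446 of the 1916 cells and were named from markers such as Slc34a1, Lrp2, Gatm and Slc22a6. They held 229 of the 240 Slc51a UMIs and 234 of the 238 Slc51b UMIs. With the 4 libraries pooled, proximal tubule-like cells had 104 CPM of Slc51a (95% Poisson interval 91.1 to 119) and 106 CPM of Slc51b (93.2 to 121). Such pooled intervals cover counting error only: single libraries ran from 64.7 to 210 CPM of Slc51a and from 94.7 to 121 CPM of Slc51b. Barcodes shared by files are counted in each file. All other retained cells together had 17.4 CPM of Slc51a (8.69 to 31.1, 11 UMIs in 470 cells) and 6.33 CPM of Slc51b (1.72 to 16.2, 4 UMIs).

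The few UMIs elsewhere were close to a level set by Kap for Slc51a. For Slc51b the value was lower, but its interval of 1.72 to 16.2 CPM reached that level. Kap, an abundant androgen-regulated transcript of the proximal tubule, was taken as a stand-in for free RNA, which was not measured itself. No doublet caller was run, so Kap from doublets may be included, and the highest Kap count in a loop of Henle-like cell was 193 UMIs. In the other cells Kap stood at a ratio of 14.8% of its proximal level. That ratio would give 15.4 CPM of Slc51a and 15.7 CPM of Slc51b, against the measured 17.4 and 6.33. A Slc51a UMI was present in 11.5% of proximal tubule-like cells (median depth 792.5 UMIs) and in 2.34% of the others (median depth 781 UMIs). For Slc51b these shares were 11.4% and 0.851%. By class, loop of Henle-like cells, which also carried markers of the distal convoluted tubule, had 9 Slc51a UMIs in 278 cells, intercalated-like cells had 2 in 109, and connecting tubule-like and macrophage or dendritic-like cells had none in 70 and 13. The limit that 3 counts set was 44.7 CPM in connecting tubule-like cells, so a level under that was not detectable there. Of the 11 Slc51a UMIs outside the proximal class, 8 were in Wild-type replicate 2, where the Kap ratio would give 7.05.

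**Figure D1:**
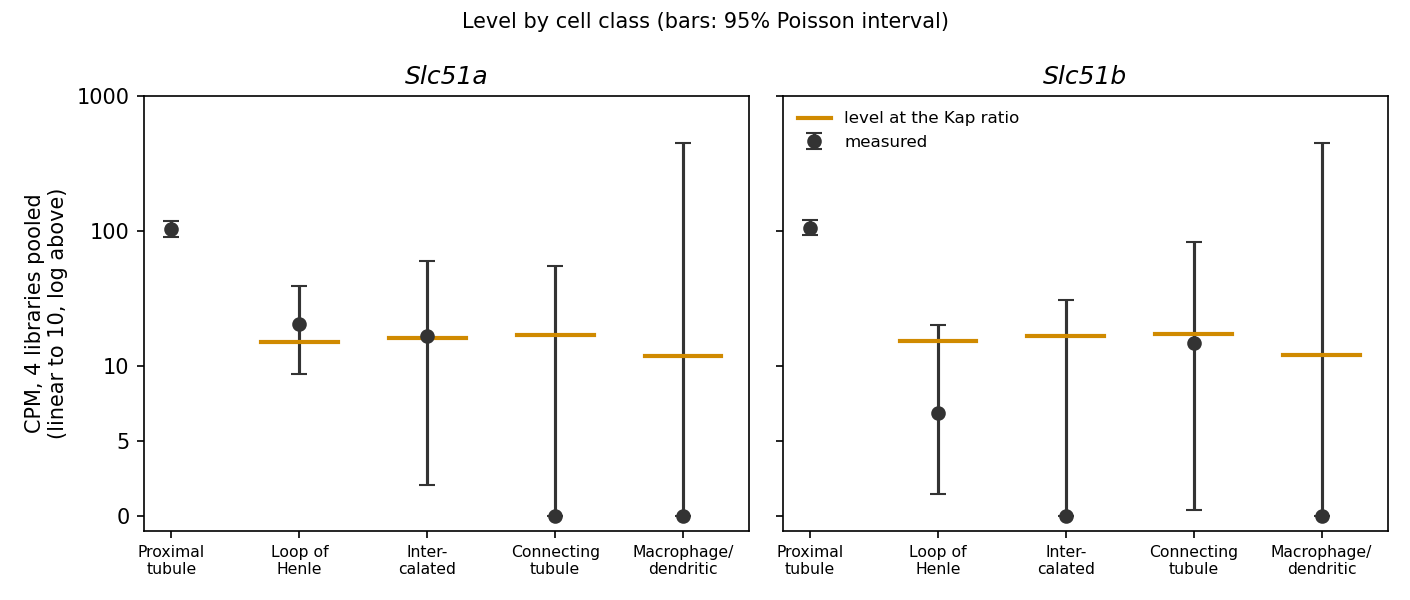
Level of Slc51a and Slc51b by cell class, in CPM over the 4 libraries pooled (axis linear to 10 and logarithmic above). Points are measured values with 95% Poisson intervals, and horizontal lines mark the level each class would have at its own Kap ratio; proximal tubule-like cells stand at 104 and 106 CPM and every other class has its line within its interval.

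Slc51a was about 3 times as high in Wild-type replicate 2 as in any other library. In proximal tubule-like cells it had 28 UMIs (64.7 CPM, 95% Poisson interval 43.0 to 93.4) in Akita replicate 1 and 41 UMIs (72.9 CPM, 52.3 to 98.9) in Akita replicate 2. It had 44 UMIs (67.7 CPM, 49.2 to 90.9) in Wild-type replicate 1 and 116 UMIs (210 CPM, 173 to 252) in Wild-type replicate 2. The Akita values lie on either side of Wild-type replicate 1, and Wild-type replicate 2 stands apart from all 3. Its level was 3.07 times the mean of the other 3 libraries (68.4 CPM). The closeness of these 3 is partly fixed by the shared barcodes: with each shared barcode in 1 file Akita replicates 1 and 2 had 64.7 and 82.5 CPM, and Wild-type replicate 1 had 54.6 CPM. The intervals cover counting error only.

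Slc51b, the partner, was nearly level. It had 41 UMIs (94.7 CPM, 67.9 to 128) in Akita replicate 1 and 68 UMIs (121 CPM, 93.9 to 153) in Akita replicate 2. The wild-type libraries had 62 UMIs (95.4 CPM, 73.1 to 122) in replicate 1 and 63 UMIs (114 CPM, 87.6 to 146) in replicate 2. All 4 intervals overlap, and the highest library was 1.28 times the lowest.

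**Figure D2:**
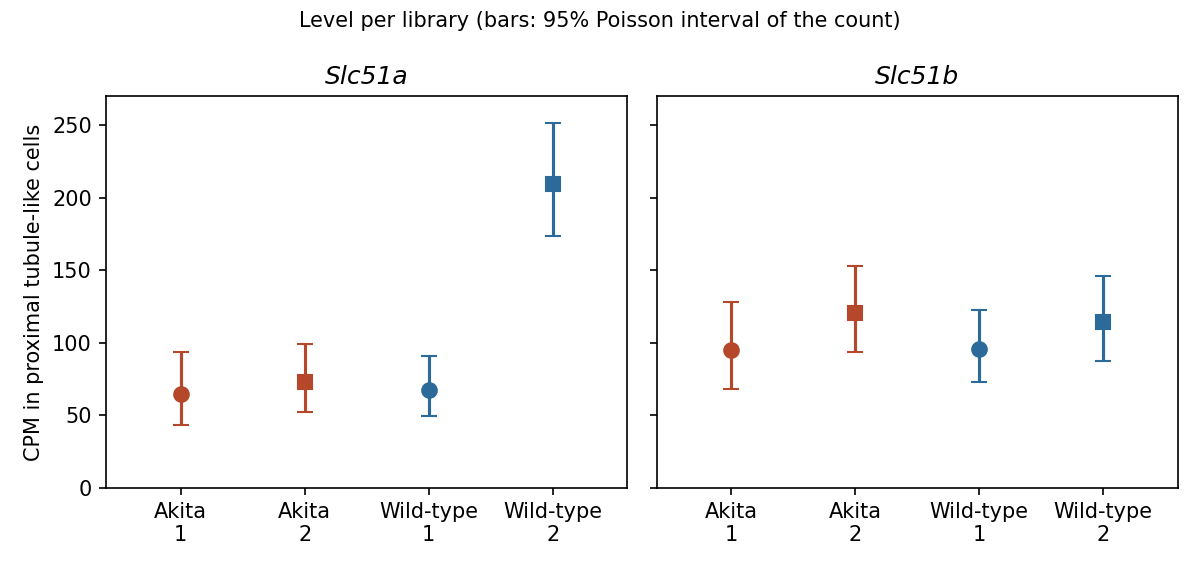
Level of each gene per library in proximal tubule-like cells, in CPM, with Akita libraries on the left and wild-type libraries on the right; points are single libraries and bars their 95% Poisson intervals. Wild-type replicate 2 stands at 210 CPM of Slc51a against 64.7 to 72.9 CPM in the others, while Slc51b lies between 94.7 and 121 CPM in all 4.

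The ratio of Slc51a to Slc51b UMIs shows the same contrast within each library, free of its depth. A UMI marks a captured 3′ end and needs no correction for length, but how well each mRNA is captured is unknown, so the ratio is compared between libraries and not read as the ratio of the mRNAs. It was 0.683 (95% exact binomial interval 0.407 to 1.13) and 0.603 (0.399 to 0.901) in Akita replicates 1 and 2. In the wild-type libraries it was 0.710 (0.471 to 1.06) in replicate 1 and 1.84 (1.34 to 2.54) in replicate 2. The interval of Wild-type replicate 2 lies above those of the other 3 libraries. It rests on the same Slc51a UMIs for which the gene was chosen, so this is a description.

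The high Slc51a of Wild-type replicate 2 did not sit in a few cells. A Slc51a UMI was present in 10.2% and 8.03% of proximal tubule-like cells from Akita, against 8.37% and 21.7% from Wild-type replicates 1 and 2. Thinned to 500 UMIs per cell, which leaves 1080 of the 1446 cells, the shares were 4.49% and 4.42% in Akita, against 3.45% and 9.12% in Wild-type replicates 1 and 2. The 5 cells with most Slc51a held 20.7% of its UMIs in Wild-type replicate 2, and without them 92 UMIs remained, more than the whole count of any other library. In each depth class of proximal tubule-like cells Slc51a was highest in Wild-type replicate 2, but on few UMIs in the shallow classes. At 4000 UMIs or more, Akita had 20.9 and 69.1 CPM, against 65.8 and 210 CPM in Wild-type replicates 1 and 2. From 500 to under 1000 UMIs, Akita had 110 and 127 CPM (6 and 14 Slc51a UMIs). Wild-type replicates 1 and 2 had 80.1 and 179 CPM there (10 and 14). Under 500 UMIs the Slc51a counts were 1 and 2 in Akita, against 3 and 4 in wild type. Barcodes not kept as cells had under 200 genes or over 50% mitochondrial UMIs. Their Slc51a level was 8.98 and 32.4 CPM in Akita, against 21.0 and 73.1 CPM in Wild-type replicates 1 and 2. Slc51b was highest in the same file there, with 29.2 and 23.2 CPM in Akita against 18.9 and 42.9 CPM in Wild-type replicates 1 and 2.

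Among 2748 genes of at least 50 CPM in proximal tubule-like cells, Slc51a was the only gene whose level in Wild-type replicate 2 was at least 2.88 times that of every other library, its own ratio. No gene stood out by that ratio in Akita replicate 1. For Akita replicate 2 and Wild-type replicate 1 the ratio says little, since a gene high in one of them is counted from mostly the same barcodes in the other. For Slc51b the same ratio was 0.943. As Slc51a had been chosen for this pattern, its place in that ranking is a description. The cause of the excess was not tested.

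The comparison by genotype asks whether diabetic and wild-type proximal tubule differ in this transporter. In proximal tubule-like cells Akita libraries averaged 68.8 ± 5.82 CPM of Slc51a, against 139 ± 100.6 CPM for wild type (SD, n = 2 libraries each). For Slc51b the averages were 108 ± 18.5 CPM in Akita, against 105 ± 13.2 CPM for wild type. The log2 fold change of Akita over wild type was −0.98 ± 0.39 (SE, edgeR) for Slc51a and 0.06 ± 0.28 for Slc51b. The edgeR SE borrows spread from all genes. With an SE from the spread of Slc51a alone, limma-voom gave −0.76 ± 0.89. The groups overlapped at both genes, whereas 22.7% of the 6100 genes tested had groups that did not overlap. Over all retained cells the log2 fold changes were −1.04 ± 0.40 for Slc51a and 0.02 ± 0.27 for Slc51b, again with overlapping groups at both genes, against 23.6% of 7169 genes with groups apart. In neither set of cells did edgeR call a gene at an adjusted p under 0.05 (0 of 6100 and 0 of 7169, 0.00% of each). In proximal tubule-like cells 61 of 6100 genes had an unadjusted p under 0.05 by edgeR, 7 by DESeq2 and 56 by limma-voom. DESeq2 and limma-voom also called 0. Over all retained cells the counts at an unadjusted p under 0.05 were 68, 7 and 57 of 7169 genes, again with 0 calls by each tool.

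The fold of Slc51a rested on 1 library. Without Wild-type replicate 2 it was −0.02 in proximal tubule-like cells, and without Wild-type replicate 1 it was −1.55. Without Akita replicate 1 or 2 it was −0.83 and −1.14. For Slc51b the 4 leave-outs gave values between −0.22 and 0.27, on both sides of 0. Every leave-out leaves 1 library in a group, so its SE holds no spread within that group. Counts of called genes moved as well: in proximal tubule-like cells 11 genes were called when Akita replicate 2 was left out, 15 when Wild-type replicate 1 was, and 0 without Akita replicate 1 or Wild-type replicate 2.

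When every shared barcode was assigned to 1 file, by the ratio of its UMIs between the files, Slc51a had 64.7 and 82.5 CPM in the Akita libraries against 54.6 and 210 CPM in Wild-type replicates 1 and 2, and its log2 fold change was −0.82 ± 0.49. Slc51b had 94.7 and 128 CPM against 68.8 and 114 CPM, and its log2 fold change was 0.31 ± 0.35. With the shared barcodes left out, Akita replicate 2 and Wild-type replicate 1 kept 7 and 4 Slc51a UMIs and 9 and 2 Slc51b UMIs, too few to place them between the others.

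**Figure D3:**
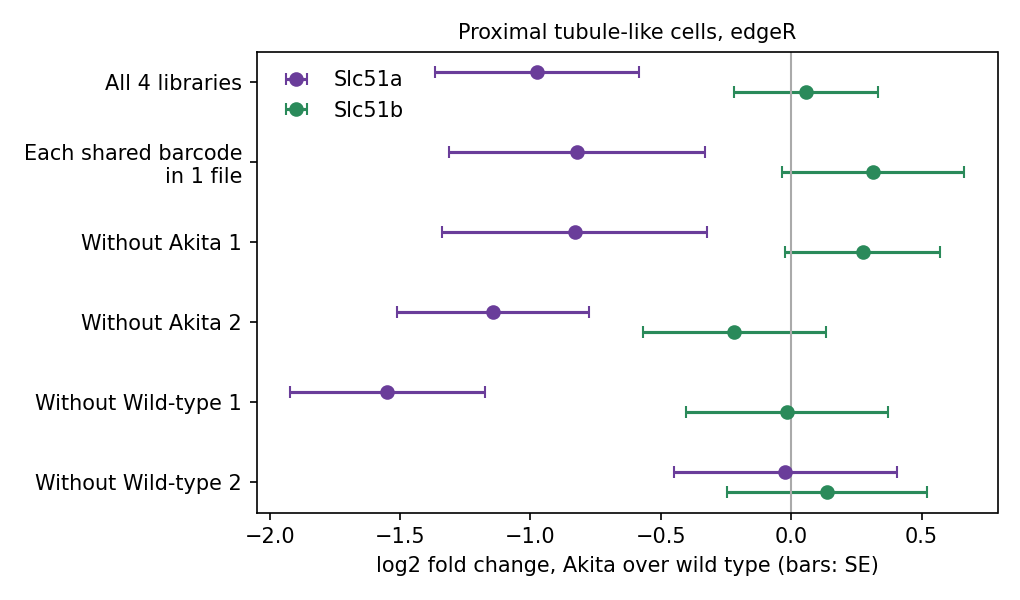
Log2 fold change of Akita over wild type in proximal tubule-like cells (edgeR, horizontal axis; bars are SE) with all libraries, with each shared barcode in 1 file, and with each library left out. Slc51a lies between −1.55 and −0.82 in every setting that keeps Wild-type replicate 2 and at −0.02 without it. Slc51b has an interval of 1 SE that reaches 0 in all 6. Where a library is left out, the bar holds no spread within the group cut to 1 library.

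The proximal tubule runs from S1 next to the glomerulus through S2 to S3, and carriers differ along it. Cells were placed by the segment whose markers took the largest share of their UMIs relative to all proximal tubule-like cells, which gave 675 S1, 376 S2 and 385 S3 cells. These are ranges of a score and not cell types: 308 of the 1436 placed cells had their highest and next share within 0.25 of each other. The median S2 cell had 12 UMIs of S2 markers, 4 of S1 markers and 1 of S3 markers, while the median S3 cell had 3 of S3 markers beside 7 of S2 markers.

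Slc51b was higher in S2 cells than in S1 or S3 cells in every library. In S1 cells it had 61.4 and 135 CPM in Akita replicates 1 and 2, against 79.0 and 101.2 CPM in Wild-type replicates 1 and 2. In S2 cells it had 140.4 and 139.7 CPM in Akita, against 131 and 144 CPM in wild type. In S3 cells it had 108 and 87.1 CPM in Akita, against 90.5 and 64.8 CPM in wild type. The order of S1 and S3 thus differed between libraries, and in Akita replicate 2 the S1 and S2 levels nearly coincide. Within each library the Poisson interval of S2 overlapped those of S1 and S3. The means were 94.2 ± 31.8 CPM in S1, 139 ± 5.80 CPM in S2 and 87.6 ± 17.8 CPM in S3 (SD, n = 4). On the log2(CPM + 25) scale the S2 minus S1 difference was 0.50 ± 0.37 and the S3 minus S2 difference −0.55 ± 0.26 (SD over libraries). With each shared barcode in 1 file these were 0.56 ± 0.26 and −0.48 ± 0.32, with the same sign in 4 of 4 libraries.

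Slc51b was also highest in S2 where clusters of the proximal cells could be named for it, while S1 and S3 changed places. At Leiden resolution 0.5 they split into S1-like (692 cells), S2-like (319) and S3-like (435), and Slc51b had 74.4 ± 29.6, 126 ± 14.4 and 88.5 ± 14.5 CPM in them. The S2-like cluster, led by Cyp2e1, was much deeper than the others, with a median of 3191 UMIs per cell against 641.5 and 624, and Slc51b levels moved with depth: in cells under 500 UMIs it had 0 UMIs in both Akita libraries and 2 in each wild-type library. The marker-share classes were closer in depth, with medians of 714, 839 and 900 UMIs. The part of depth in the difference between segments was not tested. At resolution 1 no cluster could be named S2: 249 cells were S1-like, 251 S3-like and 946 unnamed, and Slc51b had an S3 minus S1 difference of 0.77 ± 0.87 on the log2(CPM + 25) scale.

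Slc51a had no common order along the tubule. By marker shares it had 108 ± 80.1 CPM in S1, 114 ± 80.4 CPM in S2 and 81.4 ± 49.5 CPM in S3 (SD, n = 4), and the spread is mostly that of Wild-type replicate 2. S3 was below S2 in 4 of 4 libraries by marker shares (−0.34 ± 0.19 on the log2(CPM + 25) scale) but in 2 of 4 at Leiden resolution 0.5, and with each shared barcode in 1 file the marker-share difference was −0.03 ± 0.86. At resolution 1 Akita replicate 1 had 9 Slc51a UMIs in S1-like cells and 0 in S3-like cells, while Akita replicate 2 had 1 and 12. Wild-type replicate 1 had 5 and 6, and Wild-type replicate 2 had 9 and 3. These counts are too small to order the segments.

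The excess of Wild-type replicate 2 was present along the whole tubule. By marker shares its Slc51a level was 226 CPM in S1, 232 CPM in S2 and 151 CPM in S3 cells, above the other 3 libraries in each, whose highest values were 89.3, 93.1 and 76.2 CPM. The S3-like cluster at resolution 1 was an exception, with 91.8 CPM (3 UMIs) in Wild-type replicate 2 against 149 CPM in Akita replicate 2 and 128 CPM in Wild-type replicate 1. Wild-type replicate 2 also had more S2 cells by marker shares, 36.2% of its proximal cells against 20.8% to 26.1% in the others. Weighted to the pooled mix of segments, the Slc51a levels were 63.8 and 71.7 CPM in Akita, against 67.6 and 205 CPM in Wild-type replicates 1 and 2. This weighting was chosen after seeing the data, and the part of the segment mix in the excess was not tested. The Slc51a to Slc51b ratio of Wild-type replicate 2 was 2.23, 1.61 and 2.33 in S1, S2 and S3 cells. Its exact binomial intervals were 1.12 to 4.67, 1.07 to 2.44 and 1.02 to 5.79, with 9 Slc51b UMIs in S3. The highest ratios of the other 3 libraries were 1.45 (0.634 to 3.47), 0.667 (0.346 to 1.26) and 0.875 (0.396 to 1.91). These intervals overlap those of Wild-type replicate 2 in every segment. Only Akita replicate 2 in S1 and Akita replicate 1 in S3 had intervals wholly below.

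**Figure D4:**
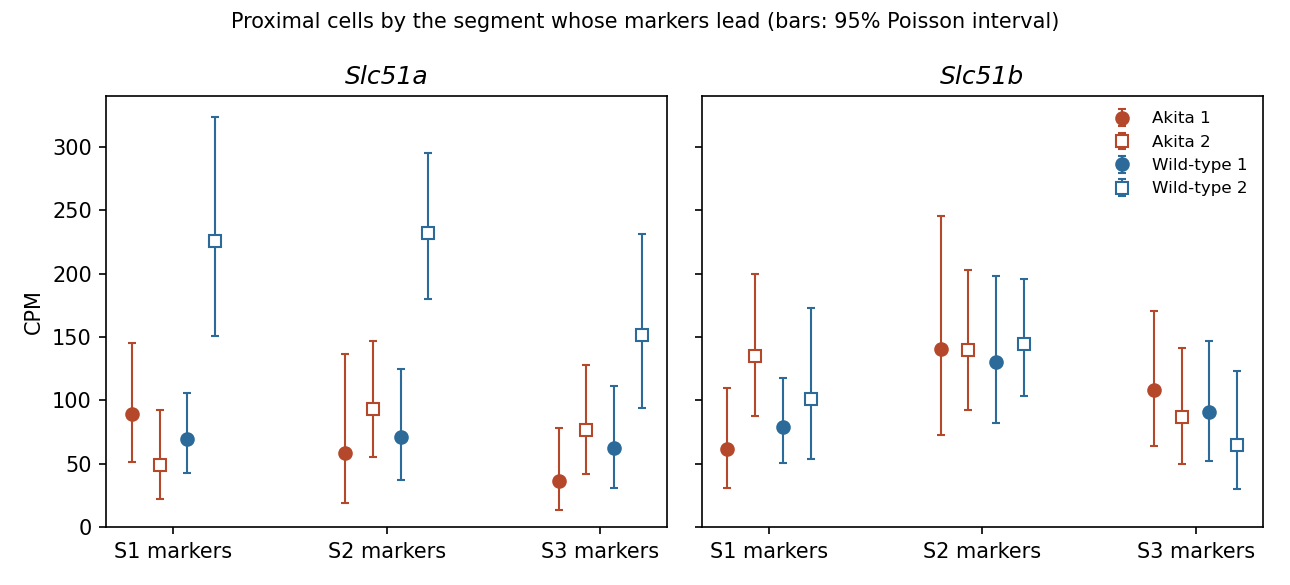
Level of each gene in CPM (vertical axis) by the segment whose markers lead in the cell (horizontal axis), 1 point per library with its 95% Poisson interval; Akita in red, wild type in blue, circles for replicate 1 and open squares for replicate 2. Slc51b is highest at S2 in all 4 libraries (131 to 144 CPM), and Slc51a of Wild-type replicate 2 is the highest point at every segment.

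Because the subunits work as a pair, their detection in the same barcodes was counted. Of 1446 proximal tubule-like cells, 167 had a Slc51a UMI, 165 a Slc51b UMI and 51 both. Slc51b was detected in 30.5% of the cells with Slc51a (95% exact binomial interval 23.7 to 38.1) and in 8.91% of those without (7.41 to 10.6). Depth moved with this gap: cells with a Slc51a UMI had a median of 2248 UMIs and cells without one 719. Multiplying the detection rates within each library and depth class gives 40.6 cells with both, against the 51 counted. Among cells of at least 4000 UMIs, 71.4% of those with Slc51a also had Slc51b (55.4 to 84.3) and 43.5% of those without (31.6 to 56.0), at median depths of 7025 and 5491 UMIs. The intervals overlapped in every depth class, the deepest included. With each shared barcode in 1 file the shares over all depths were 30.7% and 8.32%. At this depth a barcode with 1 subunit cannot be called a cell lacking the other.

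**Figure D5:**
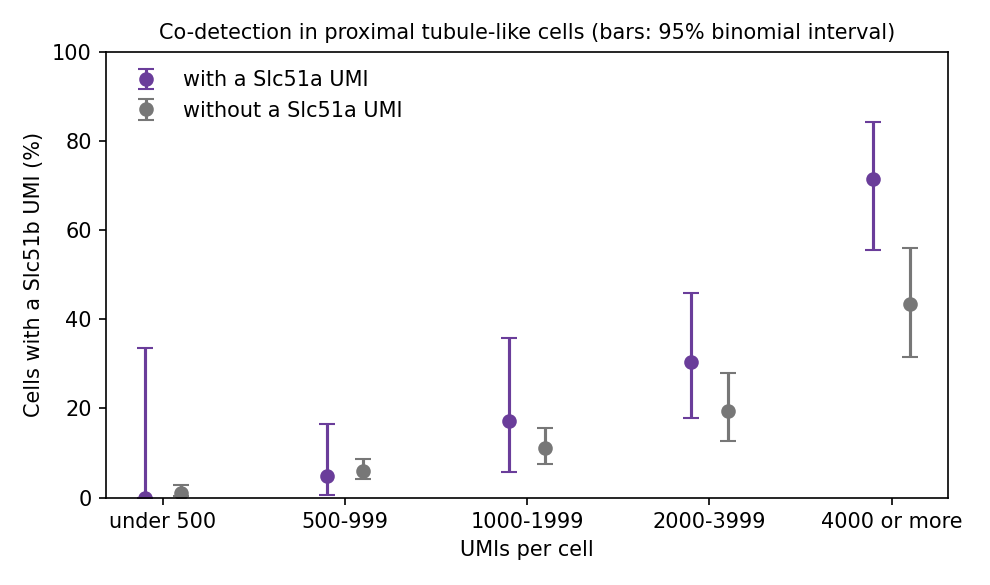
Share of proximal tubule-like cells with a Slc51b UMI (%, vertical axis) by UMIs per cell (horizontal axis), for cells with and without a Slc51a UMI; bars are 95% exact binomial intervals. Both shares climb with depth, and the gap is widest in the deepest class, at 71.4% with a Slc51a UMI against 43.5% without.

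The genes whose levels followed each subunit most closely differed. Likeness was the Pearson correlation of log2(CPM + 25) over 12 sums, the S1-like, S3-like and loop of Henle-like cells of each of 4 libraries, among 2748 genes; the points share libraries and have few UMIs in each. For Slc51a the leading genes were Lgals1 (0.91), which encodes galectin-1, the protease gene Furin (0.91), Fam120a (0.90), the dipeptidase gene Cndp1 (0.86) and C1qtnf12 (0.86). For Slc51b they were Chpt1 (0.93), a gene of phosphatidylcholine synthesis, Aass (0.93), a gene of lysine breakdown, Hoxb3os (0.92), the uroguanylin gene Guca2b (0.91) and Nit1 (0.91). The subunits' own correlation was 0.29, which placed Slc51b 857th among the genes most like Slc51a and Slc51a 779th among those most like Slc51b.

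The rest of the pathway was measured from 4 lists with 59 entries, of which 49 had a UMI and 32 were tested in proximal tubule-like cells. None was called by edgeR, and none had an unadjusted p under 0.05, against 61 of all 6100 genes tested. At 6 of the 32 (18.8%) the groups did not overlap, against 22.7% of all genes tested, with 3 higher and 3 lower in Akita. Genes named below beyond the 4 highest of each list were picked after their values were seen.

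Of 20 carriers of bile acids and organic anions, 9 were tested in proximal tubule-like cells. Their median log2 fold change was 0.21, against 0.00 over all genes tested. Slc10a2, the apical bile acid carrier, had 113 and 76.4 CPM in Akita, against 80.01 and 63.3 CPM in wild type (log2 fold change 0.37 ± 0.30), and the groups overlapped. By marker shares with libraries pooled it had 60.3 CPM in S1, 72.5 in S2 and 117 in S3 cells. Among the 4 with the highest level, Slc22a6, the basolateral organic anion exchanger OAT1, had 0.15 ± 0.25, the apical efflux pump Abcg2 −0.11 ± 0.22, the organic anion carrier Slc22a8 −0.14 ± 0.24 and the apical conjugate pump Abcc2 0.21 ± 0.25. Abcg2 was the 1 gene of this list whose groups did not overlap, with 376 and 382 CPM in Akita, against 389 and 431 CPM in wild type. Of the liver carriers, Slc10a1 had 1 UMI in all retained cells. Abcb11 was not among the identifiers counted, so 0 UMIs cannot be told from a gene left out of the annotation.

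Of 14 genes of bile acid signalling, 5 were tested, with a median of −0.05. Nr1h4, which encodes FXR, had 215 and 195.5 CPM in Akita, against 185 and 186 CPM in wild type, groups that did not overlap, with a log2 fold change of 0.14 ± 0.23. Over all retained cells its groups overlapped, with 175.7 and 148.2 CPM in Akita, against 151.3 and 156.3 CPM in wild type. The value of 186 CPM is that of Wild-type replicate 2, the library high in Slc51a. A link between Nr1h4 and the Slc51a level was not tested. Hnf4a, a master regulator of proximal genes, had 344 and 279 CPM in Akita, against 239 and 409 CPM in wild type (−0.05 ± 0.25). Vdr, the vitamin D receptor gene, had −0.16 ± 0.28, and Ppara, a regulator of fatty acid oxidation, had −0.25 ± 0.36, both with overlapping groups. Nr0b2, an FXR target that encodes the corepressor SHP, had 0 and 3 UMIs over all retained cells of the Akita libraries, against 2 and 8 in wild type. Of these Nr0b2 UMIs, 2 were in proximal tubule-like cells and 11 in the other cells. Fgf15 and Gpbar1 were not among the identifiers counted, so 0 UMIs cannot be told from genes left out of the annotation.

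Of 12 genes of steroid sulfate and prostaglandin handling, whose products include substrates of the transporter, 5 were tested, with a median of −0.08. The sulfotransferase gene Sult1d1 had 0.13 ± 0.26, the 17-beta-hydroxysteroid dehydrogenase gene Hsd17b11 −0.24 ± 0.32, and the prostaglandin E synthase genes Ptges2 and Ptges3 −0.26 ± 0.28 and −0.08 ± 0.36. Ptges2 was the 1 gene whose groups did not overlap, with 76.2 and 85.3 CPM in Akita, against 103 and 90.5 CPM in wild type. Over all retained cells its groups overlapped, with 87.8 and 100.6 CPM in Akita, against 118.1 and 92.3 CPM in wild type. Sts, which encodes steroid sulfatase, was not among the identifiers counted, so 0 UMIs cannot be told from a gene left out of the annotation.

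All 13 of the other basolateral carriers were tested, with a median of 0.09. The sodium bicarbonate carrier Slc4a4 had 0.14 ± 0.25, the dicarboxylate carrier Slc13a3 0.08 ± 0.24, and the sodium pump subunit Atp1b1 −0.10 ± 0.25, all with overlapping groups. The organic cation carrier Slc22a2 (0.17 ± 0.23) had both Akita libraries above both wild-type libraries, and the amino acid carrier Slc7a8 (−0.51 ± 0.35) had both below.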

How the data were processed

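Renal cortex of 1 kidney per mouse was minced, sieved and digested with collagenase IV before Drop-seq, per the labels' protocols. Each deposited file lists raw UMI counts, 1 line per gene and barcode. The tools the authors name are featureCounts 1.6.0, STAR 2.5.2b and UMI-tools 0.5.3, with the GRCm38 build, per the submitters' processing notes. The annotation release, the use of strand and any cell filter are not given in the sources used here. Strings of at least 11 identical bases, 4 per file and 1.08% to 1.33% of the UMIs, were left out. Symbols were found for 22046 of 22078 Ensembl identifiers.

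Cells (at least 200 genes, at most 50% mitochondrial UMIs) were clustered with scanpy 1.11.5 and Leiden (leidenalg 0.10.2) on 2000 variable genes, 30 principal components and 15 neighbours, with Slc51a and Slc51b left out. A cluster was named from at least 3 markers among its top 50 genes, and no doublet caller was run. UMIs were summed per library, the replicate, and tested with edgeR 4.0.16 (TMM, filterByExpr, quasi-likelihood test, two-sided, Benjamini-Hochberg adjustment, threshold 0.05); DESeq2 1.42.0 and limma 3.58.1 were alternatives. On simulated counts with 4-fold changes, the edgeR fit recovered 94 of 100 changed genes in proximal tubule-like cells, and 22 of 100 with 2-fold changes, with 5 false calls. The simulated libraries were independent and had the same spread at all genes, unlike the measured libraries. These rates therefore need not hold for the data.

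The members, lists and tests were chosen with earlier results of these data known. Named genes are the 4 of each list with the highest mean CPM over all retained cells, any that passed the threshold, and the 5 most like each member; some named by this rule are not reported here. Each library is 1 mouse, 2 per group. Poisson and binomial intervals are exact, at 95%.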

Additional observations from a re-analysis of the deposited data

How the results depend on the processing

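The log2 fold change of Slc51a stayed negative in every setting run. Leaving out 1 library at a time gave −1.64 to −0.038 over all retained cells and −1.55 to −0.022 in proximal tubule-like cells, and the value near 0 was in both cases that without Wild-type replicate 2. For Slc51b, near 0 with all libraries, the same leave-outs gave −0.22 to 0.20 and −0.22 to 0.27. Its value was 0.22 over all retained cells with the shared barcodes left out, and in proximal tubule-like cells 0.31 with each shared barcode in 1 file and 0.33 with the same counts in DESeq2; the cause was not tested. Called genes numbered 0 to 23 over all retained cells and 0 to 15 in proximal tubule-like cells when 1 library was left out, and 1 of 20218 and 1 of 18597 with no filter on low counts; all other settings gave 0. Outside the proximal tubule-like cells Slc51a was between 6.24 CPM, without Wild-type replicate 2, and 23.4 CPM, without Wild-type replicate 1. The S3 minus S1 difference ran from −1.92 to 0.50 for Slc51a and from −0.06 to 1.18 for Slc51b on the log2(CPM + 25) scale, over 11 settings for each gene. Every shift was below the SD over libraries of the main setting, but that SD was 2.19 for Slc51a and 0.87 for Slc51b. A yardstick this wide cannot show that the difference is stable.

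The deviations of same-numbered libraries correlated at −0.25 over all retained cells and −0.23 in proximal tubule-like cells. With 2 libraries per group, the crossed numbers give the same values with the other sign, 0.25 and 0.23. The crossed pair of Akita replicate 2 and Wild-type replicate 1 also shares most of its barcodes. These values therefore cannot show whether replicate numbers pair the libraries. With the replicate block, 0 genes were called in both, and the log2 fold changes were −0.93 and −0.87 for Slc51a and 0.01 and 0.04 for Slc51b. Crossed numbers as a block also gave 0 calls, with 111 of 7169 and 142 of 6100 genes at an unadjusted p under 0.05. Limma-voom, the crossed block, DESeq2 on shared barcodes kept in 1 file, the merged barcodes, the equal segment mix and all leave-outs of the level outside the proximal tubule and of co-detection were chosen after seeing the data. With 28 to 116 Slc51a UMIs and 41 to 68 Slc51b UMIs per library in proximal tubule-like cells, depth limits every split by segment.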
